A study of Drosophila melanogaster with 2 samples.

Results

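The genes described here encode nuclear subunits of the mitochondrial respiratory chain and ATP synthase of Drosophila melanogaster. They were chosen by symbol alone, as protein-coding genes whose name begins with ND-, COX and a digit, UQCR-, ATPsyn or Sdh. Subunit genes with other symbols, such as blw, levy and cype, fall outside the rule and outside the counts per complex. The rule found 88 genes of 13945 protein-coding genes on the nuclear chromosome arms. They comprised 40 genes of complex I, 7 of complex II with the assembly factor gene Sdhaf3 beside them, 9 of complex III, 16 of complex IV and 15 of complex V. Of the 88, 24 are copies named after a subunit with a final L (or L and a digit), and 64 are not. ND-MNLL was counted among the 64, since its last letters belong to the subunit's own name.

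The study mapped the forkhead family transcription factor fd96Cb by chromatin immunoprecipitation with sequencing (ChIP-seq). Whole embryos aged 0 to 24 h came from a fly line that stably carries fd96Cb fused at its C terminus to green fluorescent protein. The pull-down used an antibody against that tag, although the antibody field of the labels names fd96Cb. The 2 samples, biological replicates 2 and 3, share genotype, age and tissue and form 1 group, so no condition was compared with another. A whole embryo mixes all cell types and stages, and a peak list cannot say in which cells a site was bound.

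Complex I (NADH dehydrogenase) and complex II (succinate dehydrogenase) pass electrons to ubiquinone. Complex III (cytochrome bc1) hands them to cytochrome c, and complex IV (cytochrome c oxidase) hands them to oxygen. Complexes I, III and IV pump protons across the inner mitochondrial membrane, and complex V (ATP synthase) uses that gradient to make ATP. A few core subunits are encoded in mitochondrial DNA, while the many others are nuclear and broadly expressed. Many duplicated copies of such genes in Drosophila are expressed mainly in the testis.

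The deposited lists held 30000 peaks per replicate, 30000 peaks from both replicates pooled, and 5743 peaks kept as the optimal set by the irreproducible discovery rate (IDR) procedure, which scores agreement of peak ranks between replicates. The IDR peaks are the 5743 strongest pooled peaks. A peak of this set need not be listed in both replicates. Each peak has the authors' signal value, which ranks peaks within its own list and has no common scale across lists. A promoter summit is a peak summit within 1000 bp of a transcription start site (TSS) of a gene. Positions are in dm6, and sequencing depth is unknown.

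An IDR promoter summit lay at 17 of the 88 genes (19.3%), against 21.9% of all protein-coding genes. With a summit counted for every gene within 1000 bp, the share is near that background. Counted so, these genes as a group were not set apart by strong peaks. The 17 genes held 19 IDR promoter summits, because ND-SGDH and ATPsynE had 2 each. The count was 15 genes among the 5743 strongest peaks of replicate 2 and 19 genes among those of replicate 3, against 21.8% and 21.6% of all genes. With each summit given only to the gene of its nearest TSS, 7 of the 88 genes kept one, a lower share than the 15.9% of all genes.

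Cytoplasmic ribosomal protein genes (symbols beginning RpL or RpS) gave 53 of 92, and mitochondrial ribosomal protein genes gave 24 of 73. The 88 genes, 24 of them L copies, thus had a lower share than either of these groups of housekeeping genes. With the copies left out, the gap to the mitochondrial group was small at genes with another gene's opposite-strand TSS within 1000 bp upstream. There the share was 37.5% for genes without the L suffix, 41.4% for mitochondrial and 63.6% for cytoplasmic ribosomal protein genes. At other promoters it was 4.17% (1 of 24 genes), 0 of 15 and 48.6% in the same order. The gap to the cytoplasmic group thus remained. No test was made between groups of genes, which are not replicates.

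Complex I, the entry point for electrons from NADH, held the strongest peaks of the family. Of its 40 genes 8 had an IDR promoter summit (20.0%). The strongest belonged to ND-MWFE (FBgn0085468), a small accessory subunit (2R, 13158342 to 13158656, signal 774). Its summit lay 172 bp upstream of the TSS and ranked 495 in the pooled list, 339 in replicate 2 and 674 in replicate 3. The same summit stood nearer to TppII, a peptidase gene, at -49 bp.

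ND-ASHI (FBgn0029888), an accessory subunit of the membrane arm, followed (X, 6679223 to 6679526, signal 697). Its summit lay at -264 bp and ranked 805 in replicate 2 and 505 in replicate 3. This summit is shared with the divergent neighbour Fum1, at -258 bp. Fum1 encodes fumarase, the enzyme of the tricarboxylic acid (TCA) cycle that follows succinate dehydrogenase.

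ND-51 (FBgn0031771) and ND-24 (FBgn0030853) encode neighbouring subunits of the module that oxidises NADH. The ND-51 peak (2L, 6062730 to 6062972, signal 455) had its summit at -85 bp and ranked 917 in replicate 2 and 1450 in replicate 3. The ND-24 peak (X, 17632058 to 17632287, signal 407) had its summit at 99 bp, in an intron of the gene, and ranked 1181 and 1717 in the same order. Both genes thus ranked higher in replicate 2 than in replicate 3.

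The ND-42 peak (3R, 22027517 to 22027734, signal 351) stood between ND-42, an accessory subunit, at -128 bp and Cchl, the gene of cytochrome c heme lyase, at -101 bp. It ranked 1627 in replicate 2 and 1958 in replicate 3. ND-SGDH (FBgn0011455), an accessory subunit of the membrane arm, had its stronger summit at -47 bp (3L, 12138537 to 12138733, signal 332, ranks 1862 and 1869). Its weaker summit lay at -923 bp, in an intron of RhoGAP68F (signal 197, ranks 3103 and 4147).

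ND-MNLL, a small accessory subunit, and ND-75, the large subunit that carries iron-sulfur clusters, had the weakest complex I summits of the IDR set. That of ND-MNLL lay at -90 bp (signal 172) and ranked 4648 in replicate 2 and 4243 in replicate 3. That of ND-75 lay at -759 bp (signal 149) and ranked 10101 in replicate 2 and 3977 in replicate 3. The ND-75 peak was therefore well below the strongest 5743 in one library.

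**Figure D1:**
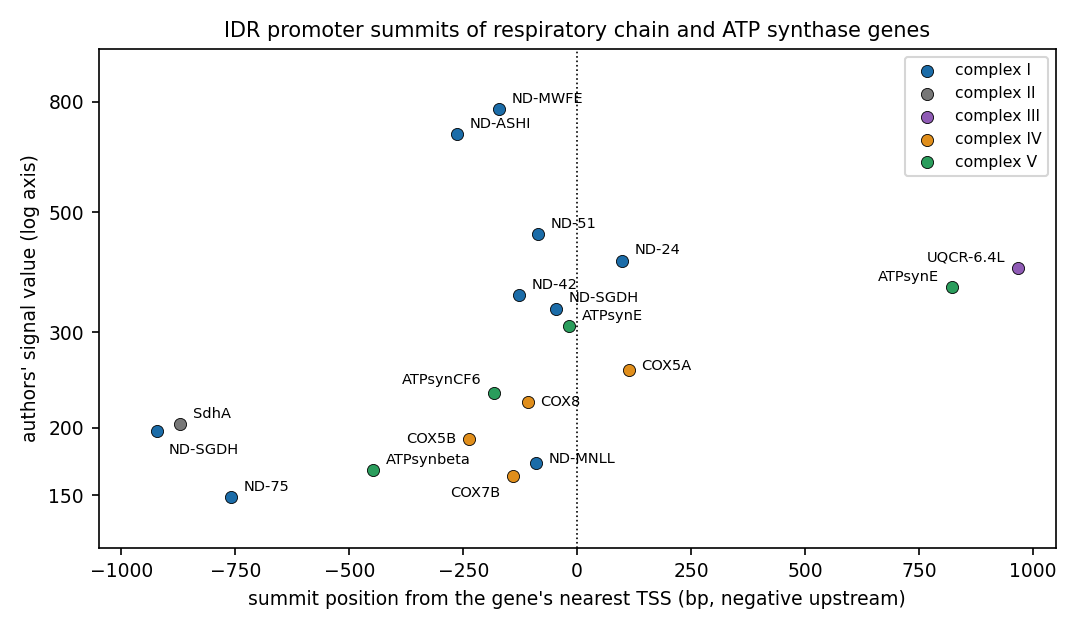
Position (horizontal axis, bp from the gene's nearest TSS, negative upstream) and authors' signal value (vertical axis, log scale) of the 19 IDR promoter summits of the 88 genes, 1 point per summit, coloured by complex. The 2 strongest, ND-MWFE at 774 and ND-ASHI at 697, are complex I genes, and 15 of the 19 lie upstream of the TSS.

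Complex IV gave 4 of 16 genes (25.0%), all of them genes without the L suffix. COX5A (FBgn0019624) had its summit at 113 bp, in an intron of the gene (3R, 11819438 to 11819590, signal 256, ranks 2873 in replicate 2 and 2578 in replicate 3). COX8, a small membrane subunit, had its summit at -108 bp (signal 223, ranks 2249 and 4133). COX5B, a subunit on the matrix side, had it at -237 bp (signal 191, ranks 3433 and 4280), and COX7B at -141 bp (signal 163, ranks 5171 and 3958). COX5A, COX5B and COX7B had summits nearer to other genes, glo at -52 bp, IFT52 at -61 bp and Sec3 at -119 bp. The IDR promoter peaks of complex IV were weaker than the leading peaks of complex I.

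Complex V gave 3 of 15 genes (20.0%). ATPsynE (FBgn0038224), a membrane subunit of the synthase, had a summit at -18 bp (3R, 14326858 to 14327032, signal 308, ranks 1342 in replicate 2 and 3219 in replicate 3). Its other summit at 822 bp was stronger (signal 364, ranks 2083 and 1521) but lay 161 bp upstream of the next gene, spn-B, a DNA repair gene. ATPsynCF6, coupling factor of the stator stalk, had its summit at -182 bp (signal 232, ranks 1906 and 4298). That summit lay nearer to Sec13, at -32 bp.

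ATPsynbeta (FBgn0010217), the catalytic subunit, lies on chromosome 4. Its summit (4, 1030842 to 1031231, signal 167) lay at -447 bp, in an intron of the neighbour CG11076, and ranked 4681 in replicate 3. It stood nearer to a TSS of CG11076, at -62 bp. Replicate 2 had no summit within 1000 bp of the ATPsynbeta TSSs. The nearest replicate 2 summit lay 3730 bp from the IDR summit, so the peak was listed in 1 of the 2 libraries. Replicate 2 signal at the site itself was not measured here.

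Complexes II and III gave 1 gene each. SdhA (FBgn0261439), the flavoprotein subunit that oxidises succinate, had a summit at -871 bp (2R, 19396777 to 19396923, signal 203), which stood nearer to cer, at -70 bp. It ranked 3704 in replicate 3. The nearest replicate 2 peak overlapped it and ranked 2721 (19396853 to 19397222, signal 95.2). The replicate 2 summit lay 196 bp from the IDR summit and 1067 bp from the SdhA TSS, just outside the promoter window. The complex III gene was UQCR-6.4L (FBgn0262842), at 967 bp (3L, 16567618 to 16567889, signal 395, ranks 1361 and 1596). This summit lies in an intron of Mipp1 and only just inside the promoter window. None of the 6 complex III genes without the L suffix had an IDR promoter summit, the core protein genes UQCR-C1 and UQCR-C2 included. Against a background of 21.9%, counts this small among 7 and 9 genes do not set the complexes apart.

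**Figure D2:**
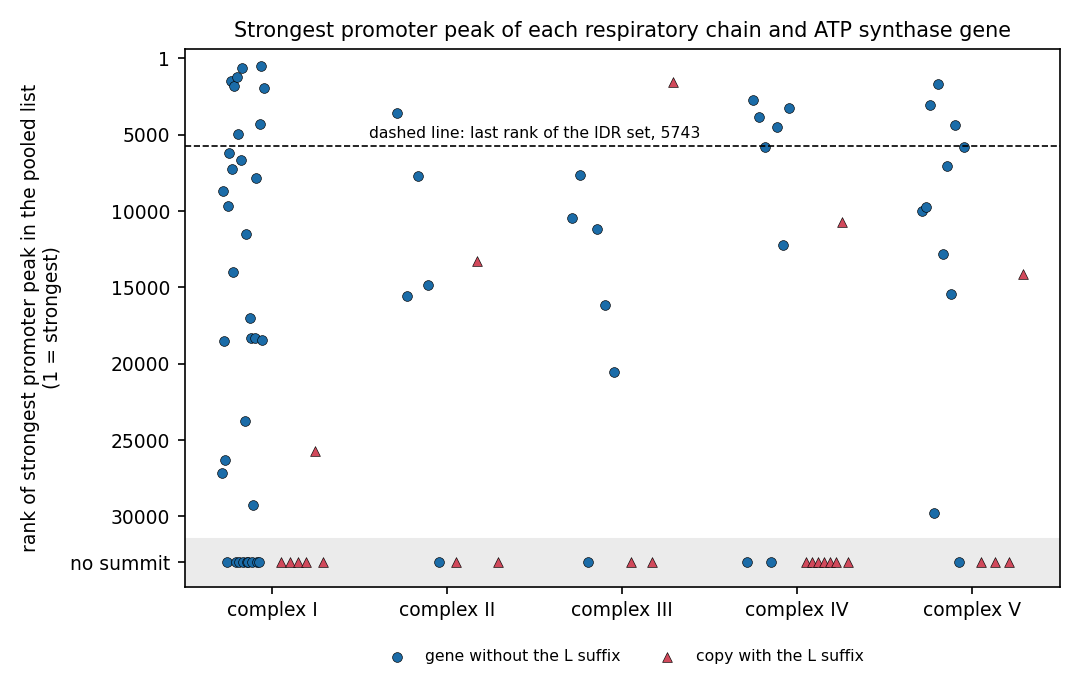
Rank in the pooled list (vertical axis, 1 at the top) of the strongest promoter peak of each of the 88 genes by complex, with circles for genes without the L suffix and triangles for copies with it. Sdhaf3 is drawn with complex II, the grey band holds genes with no pooled promoter summit, and the dashed line marks rank 5743, the end of the IDR set. The circles spread over all ranks, while 19 of the 24 triangles lie in the grey band.

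The summits were mostly upstream of the TSS. Their distance from it is bounded by the 1000 bp window, and 6 of the 19 lay 300 to 1000 bp away. Positions here are from each gene's own TSS, over the 3541 pairs of a gene and an IDR promoter summit for all genes. Of the 19, 15 lay upstream (78.9%), against 83.4% of all pairs, and their median position was -128 bp against -170 bp. Within 300 bp upstream lay 11 of them (57.9%), against 56.6% of all pairs. With each of the 2511 summits given to its nearest TSS alone, 7 were left to these genes, with a median of -47.0 bp and 71.4% upstream. All genes then had a median of -145 bp and 79.2% upstream. Summit position is coarse for 7 of the 19 peaks, which are 390 bp wide and have their summit at the middle of the interval. No member summit lay in an exon, 12 were intergenic and 7 intronic.

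By strength they stood in the middle of the set. Their median percentile by signal among IDR peaks was 52.6, against 55.6 for all promoter summits. The median percentile was 66.8 among the strongest peaks of replicate 2 alone and 31.1 among those of replicate 3 alone, against 58.2 and 53.9 for all promoter summits of the same lists. The member peaks thus stood higher than promoter peaks at large in one library and lower in the other.

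All 19 had a summit within 100 bp in replicate 3, and 17 in replicate 2. The 2 without one were those of SdhA, matched at 196 bp, and ATPsynbeta. Of the 17, 11 ranked higher in replicate 2 than in replicate 3. The distance to the matching summit was at most 29 bp in replicate 3 and reached 89 bp in replicate 2.

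**Figure D3:**
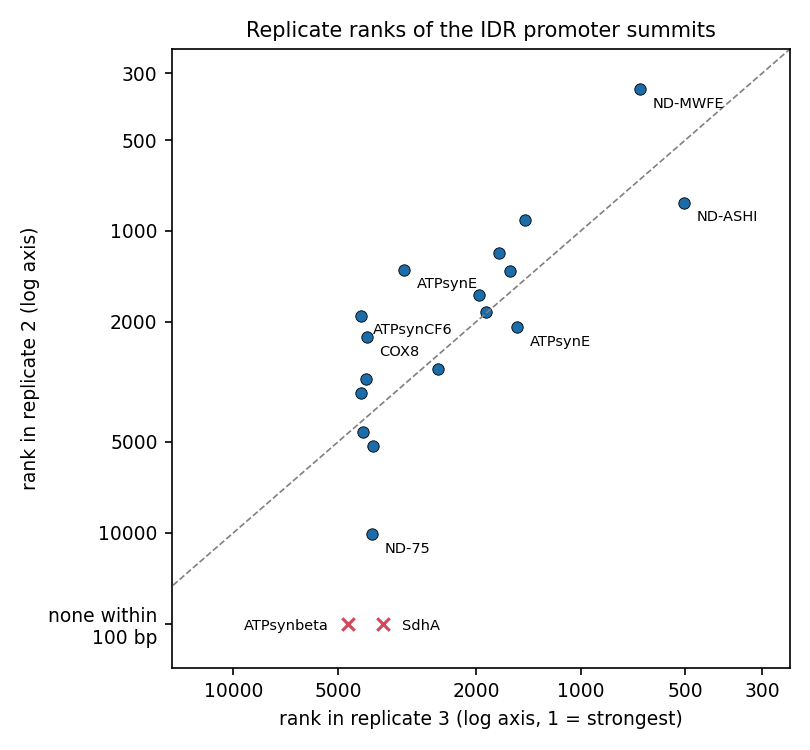
Rank of the 19 IDR promoter summits in replicate 3 (horizontal axis) and replicate 2 (vertical axis), both on log axes with the strongest peaks at the top right, with 1 point per summit and the dashed line at equal rank. The crosses are SdhA and ATPsynbeta, which had no summit within 100 bp in replicate 2, and ND-75 ranks 10101 there against 3977 in replicate 3.

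Of the 17 genes with an IDR promoter summit, 15 share their promoter region with a divergent neighbour. A gene was called divergent when an opposite-strand TSS of another protein-coding gene lay within 1000 bp upstream of one of its TSSs. Of the 88 genes 44 were divergent, against 36.2% of all protein-coding genes. Of these 44 genes 15 had an IDR promoter summit (34.1%), and of the other 44 genes 2 had one (4.55%). The same shares over all protein-coding genes were 36.2% and 13.7%. A divergent arrangement thus went with peaks in this family as it did across the genome. The share at the other promoters was lower than in all genes, although it rests on SdhA and UQCR-6.4L alone.

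**Figure D4:**
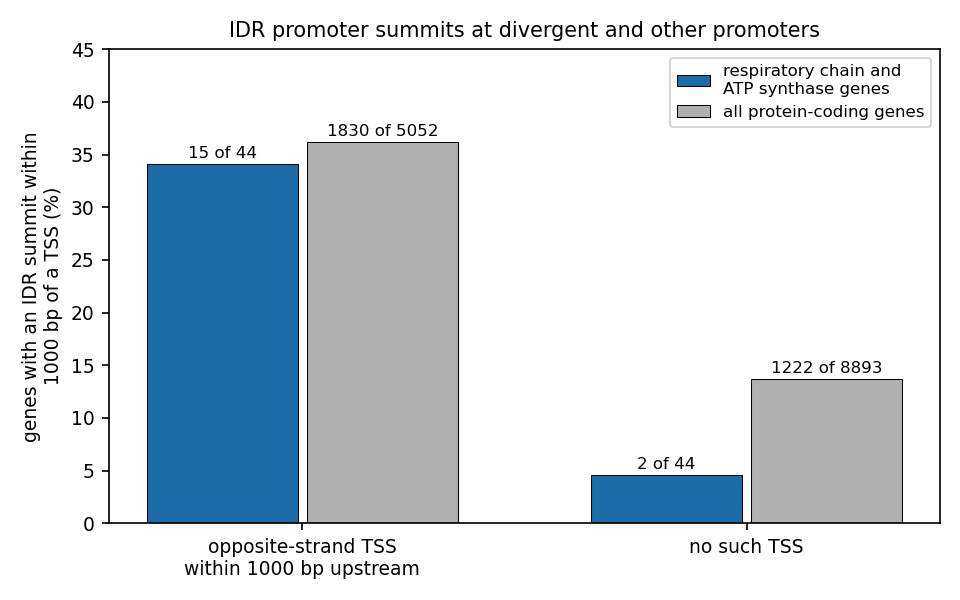
Percent of genes with an IDR summit within 1000 bp of a TSS (vertical axis, from 0), for genes with and without an opposite-strand TSS within 1000 bp upstream. Blue bars are the 88 respiratory chain and ATP synthase genes and grey bars all protein-coding genes, with the counts above the bars; 15 of 44 stand beside 2 of 44.

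Of the 19 summits 18 lay within 1000 bp of a TSS of another protein-coding gene as well, and 12 were nearer to that gene than to the respiratory gene. The 7 genes whose own TSS was the nearest were ND-51, ND-24, ND-SGDH, ND-MNLL, ATPsynE, COX8 and UQCR-6.4L. For ND-MNLL the TSS of CG45089 lay at the same distance. Peaks between divergent genes cannot be assigned to either gene from these data.

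Some of the neighbours are themselves mitochondrial, an observation made after the values were seen. ND-ASHI and Fum1 shared an IDR summit, as did ND-42 and Cchl. ND-B16.6 is divergent from kdn, which encodes citrate synthase, and ATPsynD from cdi, a kinase gene, and from mRpL55, which encodes a mitochondrial ribosomal protein. Neither of these pairs had an IDR summit within 1000 bp of the respiratory gene. The strongest pooled summit ranked 18284 for ND-B16.6 and 29804 for ATPsynD. The other neighbours that share an IDR summit were CG13994, corolla, Afti, glo, VhaM9.7-b, IFT52, p115, Sec3 and CG1632, beside those named above.

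The sequence at these summits was rich in A and T. Mean GC within 50 bp of the 19 summits was 27.2% ± 5.95 (SD over 19 summits), against 30.7% ± 8.46 over all 2511 promoter summits. The lowest was 18.8% at ND-24 and the highest 41.6% at COX5B. The following stretches show the summit regions of a strong peak shared with fumarase (ND-ASHI), of a strong peak at the NADH-oxidising module (ND-51) and of the 3 summits that hold the core of the nuclear respiratory gene (NRG) element. They run 5′ to 3′ on the strand of the respiratory gene and stop short of exons, with sequence from Release 6 of the genome (RefSeq), the build dm6. Capitals mark the degenerate forkhead pattern at ND-ASHI and the NRG core at ND-42, ND-SGDH and ND-MNLL, while ND-51 holds neither. The ND-MNLL stretch also holds 1 degenerate forkhead site, left in lower case. At ND-SGDH that pattern occurs within 50 bp of the summit but not wholly inside the trimmed stretch.
ND-ASHI, chrX:6679332-6679432, minus strand: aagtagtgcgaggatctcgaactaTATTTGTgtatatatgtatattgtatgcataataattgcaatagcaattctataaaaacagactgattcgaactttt
ND-51, chr2L:6062792-6062892, minus strand: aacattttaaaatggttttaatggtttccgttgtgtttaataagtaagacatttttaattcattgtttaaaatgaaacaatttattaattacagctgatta
ND-42, chr3R:22027531-22027631, plus strand: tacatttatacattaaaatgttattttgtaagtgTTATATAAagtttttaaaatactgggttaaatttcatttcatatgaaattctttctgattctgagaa
ND-SGDH, chr3L:12138585-12138681, minus strand: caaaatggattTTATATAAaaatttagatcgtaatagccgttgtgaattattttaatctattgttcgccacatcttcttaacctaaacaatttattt
ND-MNLL, chrX:7893838-7893938, minus strand: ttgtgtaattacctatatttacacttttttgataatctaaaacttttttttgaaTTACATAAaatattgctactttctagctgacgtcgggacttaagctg

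The NRG element was described in Drosophila upstream of nuclear genes of energy metabolism, the kind of genes counted here. Its share at them is therefore not independent of how the element was found. Its palindromic core was searched on both strands as TTA, then C or T, then A or G, then TAA. A promoter here runs from 250 bp before to 50 bp after a TSS, and a gene counts when any of its promoters holds the pattern. The core occurred at 12 of the 88 genes (13.6%), against 893 of the 13945 protein-coding genes. All 12 were genes without the L suffix, 12 of 64 (18.8%) against 0 of 24 copies. Genes without the suffix also have more TSSs, with a mean of 1.56 per gene against 1.17 for the copies and 1.41 for all genes, and so more sequence searched.

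Within 50 bp of the summit the NRG core stood at 3 of the 19 (15.8%), against 3.11% of all promoter summits. The core is made mostly of A and T, and the member summits were lower in GC than promoter summits at large. The part of base composition in this share was not tested. Among the 64 genes, 4 of the 16 with an IDR promoter summit had the core in a promoter, and 8 of the 48 without one.

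The DREF pattern TATCGATA, bound by a factor of growth-related promoters, occurred at 13 genes, again all without the suffix (20.3% of 64, against 10.2% of all genes). It stood within 50 bp of none of the 19 summits, against 1.27% of all promoter summits, a share too low for a count of 0 to set them apart. The degenerate forkhead pattern, A or G, C or T, AAA, C or T, A, is common, and 71.6% of the 88 genes and 68.4% of all genes had it in a promoter. It lay within 50 bp of 11 of the 19 summits (57.9%), against 39.0% of all promoter summits. Member summits were lower in GC, and the part of base composition in this share too was not tested. The strict forkhead pattern GTAAACA was at none of the 19 summits, against 3.15% of all promoter summits, and in a promoter of 8 genes (9.09% against 11.6%). The GATA pattern, A or T, GATA, A or G, occurred at 51.1% against 53.5% of all genes. The Initiator pattern TCAGT followed by C or T occurred at 29.5% against 42.1%, and the E-box CACGTG at 4.55% against 5.30%. A match is a description of letters and not evidence of binding.

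**Figure D5:**
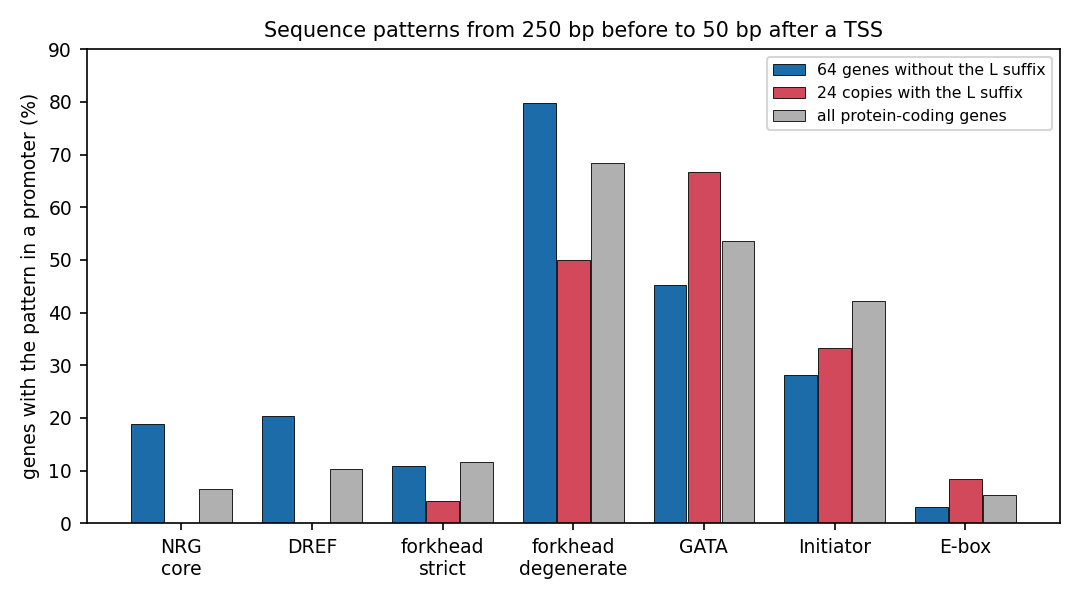
Percent of genes with each pattern in a promoter (vertical axis), from 250 bp before to 50 bp after a TSS on both strands. Blue bars are the 64 genes without the L suffix, red bars the 24 copies with it and grey bars all protein-coding genes. The NRG core stands at 18.8% of the genes without the suffix and at none of the copies.

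The L copies had few peaks. An IDR promoter summit was at 16 of the 64 genes without the suffix (25.0%) and at 1 of the 24 copies (4.17%), against 21.9% of all genes. The 1 copy was UQCR-6.4L, whose summit at 967 bp drops out with a window of 500 bp. With each summit given only to the gene of its nearest TSS, the counts were 6 of the 64 and 1 of the 24. Both shares were then below the 15.9% of all genes, and the genes without the suffix stood closer to the copies. In the pooled list, 50 of the 64 genes without the suffix had a promoter summit (78.1%) and 5 of the 24 copies (20.8%), against 55.9% of all protein-coding genes. The genes without the suffix thus stood above the background in the pooled list, and the copies below it.

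The arrangement of the promoters differed in the same direction. Of the 64 genes 40 were divergent (62.5%), and of the 24 copies 4 (16.7%). Among divergent genes, an IDR promoter summit was at 15 of 40 genes without the suffix and at 0 of 4 copies. Among the others, it was at 1 of 24 genes without the suffix and at 1 of 20 copies. For pooled summits the counts at divergent promoters were 34 of 40 and 2 of 4, and at other promoters 16 of 24 and 3 of 20. Over all protein-coding genes the pooled shares were 74.2% at divergent and 45.6% at other promoters. Outside divergent promoters IDR summits were thus rare in both kinds of gene, while pooled summits were more frequent at genes without the suffix. Sequence composition differed as well. The lowest GC of any window of 50 bp on either side of a base, within 500 bp of a TSS, had a median of 18.8% for the 16 genes with an IDR summit, 21.8% for the other 48 and 24.3% for the copies. Over all genes the medians were 19.8% with an IDR promoter summit and 22.8% without, so a gap between genes with and without one was also present genome-wide. Genes without the suffix also have more TSSs (mean 1.56 against 1.17 for the copies), and so more sequence searched for summits and for low GC. The part of promoter arrangement, sequence composition or number of TSSs in the difference was not tested.

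Set against the gene they are named after, 20 of the copies had a partner among the 88 genes. In 13 of the 20 pairs only the partner had a pooled promoter summit, in 2 only the copy, in 2 both and in 3 neither. The partners with IDR peaks were ATPsynCF6, ATPsynbeta, COX5B, ND-24, SdhA and ND-51, the last with 2 copies, ND-51L1 and ND-51L2. ND-51L2 had a pooled summit of rank 25719, against rank 1228 for ND-51. The other copies with a pooled promoter summit but no IDR peak were COX7AL2 (rank 10737), SdhBL (rank 13267, against 15578 for SdhB) and ATPsynepsilonL (rank 14110). COX7AL2, like UQCR-6.4L, thus stood above its namesake, since COX7A and UQCR-6.4 had no pooled summit.

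Of the 71 genes with no IDR promoter summit, 38 had a weaker pooled one. All 57 pooled promoter summits of the family below the IDR set were in peaks 390 bp wide, so their positions are coarse. Just below the end of the IDR set came ATPsyngamma, the rotor subunit that turns in the synthase (3R, 29748716 to 29749105, rank 5775, signal 128, -42 bp). It ranked 11200 in replicate 2 and 6100 in replicate 3. COX6B followed at rank 5794 (signal 128, -90 bp, ranks 6289 and 6151). ND-23, an iron-sulfur subunit of complex I, had rank 6214 at -182 bp, and ND-AGGG rank 6652 at -132 bp. ATPsynG had rank 7053 at -16 bp, and ND-30, a core subunit of complex I, rank 7235 at -297 bp. The last members inside the set were COX7B at rank 4493 and ND-75 at rank 4941.

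The 14 genes without the suffix and without a pooled promoter summit were ATPsyndelta, COX4, COX7A, ND-19, ND-49, ND-ACP, ND-B12, ND-B14.5B, ND-B14.7, ND-B17, ND-B8, ND-MLRQ, Sdhaf3 and UQCR-6.4. Of these, ND-B17 had a summit at -178 bp in replicate 3 (rank 5227) that was among its strongest 5743. ND-49, a core subunit of complex I on chromosome 4, had a replicate 3 summit at -94 bp of rank 5776. The 19 copies without one were the remaining L genes.

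The replicates differed in these weaker peaks. Over all 30000 peaks, replicate 2 had a promoter summit at 33 of the 64 genes without the suffix (51.6%), against 51.0% of all genes. Replicate 3 had one at 57 of the 64 (89.1%), against 57.4% of all genes. Of the 64 genes 30 had one in both lists, 27 only in replicate 3 and 3 only in replicate 2. Promoter summits made up 27.1% of the replicate 2 list and 37.5% of the replicate 3 list. The share of genes without the suffix was thus above the background in replicate 3 and near it in replicate 2, so the pooled count above moves with 1 library. The copies gave 8 of 24 in replicate 2 and 6 of 24 in replicate 3.

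The median distance from a TSS to the nearest IDR summit was 3898 bp for the 64 genes and 9328 bp for the copies, against 6581 bp for all genes. ND-AGGG, UQCR-11 and ND-MLRQ, at the inner end of 3L (starts 24976254, 25120709 and 23339326), had no IDR summit for 1036270, 891775 and 429126 bp. ND-AGGG nevertheless had its pooled summit of rank 6652 there. It ranked 9640 in replicate 2 and 6366 in replicate 3.

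Other genes of the same pathway were taken from 5 lists by exact symbol, with 45 of 49 entries matched. Of 11 matched genes of respiratory subunits and electron carriers with other symbols, 7 had an IDR promoter summit. Cyt-c-d and Cyt-c-p, the cytochrome c genes, had strong ones (2L, rank 134 at 387 bp, and rank 429 at 946 bp). Cyt-c1L, a copy of the cytochrome c1 gene, had one of rank 673 at -688 bp, while Cyt-c1 had none. The others were blw, the ATP synthase alpha subunit (rank 1381, -181 bp), the complex IV subunit genes levy (rank 3175, -148 bp) and cype (rank 3366, -348 bp), and Cyt-b5 (rank 325, -168 bp), an electron carrier outside the chain. RFeSP, ox and sun had none. Like blw, the beta subunit gene ATPsynbeta had an IDR promoter summit. That summit of ATPsynbeta stood nearer to CG11076 and had no match in replicate 2.

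Of 15 matched genes on the TCA cycle list 7 had an IDR promoter summit. That list also holds the pyruvate dehydrogenase genes Pdha, Pdhb and muc, which lie outside the cycle itself. Idh3g, a subunit of isocitrate dehydrogenase, had the strongest (rank 194, -93 bp, ranks 221 in replicate 2 and 180 in replicate 3). Fum1 followed (rank 623, the summit shared with ND-ASHI), then Pdhb (rank 1711), Ogdh (rank 1727), mAcon1 (rank 2606), Scsalpha1 (rank 4814) and muc (rank 5505). Of 5 carrier genes only porin, of the outer membrane, had one (rank 5031). Of 6 assembly factor genes, CIA30 of complex I had a very strong one (3R, 29736650 to 29737049, rank 86, ranks 79 and 81), and Cox17 one of rank 1177. Of 8 genes of mitochondrial biogenesis only ERR, a nuclear receptor gene, had one (rank 1339, -149 bp). All of these counts stand beside 21.9% of all genes, and none was tested. Fum1 aside, it was not examined whether another gene lay nearer to the summits of these pathway genes.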

How the data were processed

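Peak lists from ChIP-seq of 2 embryo samples were analysed, with no second condition. Per the file headers and READMEs, the authors made 1 list per replicate, 1 pooled list and the optimal IDR set, each against a control. Each deposited peak has the authors' signal, which was used, and a −log10 q, which was not. For aligner, peak caller, thresholds and depth, the entry is: not given in the sources used here. Where a summit fell beyond its peak (no list had more than 4 such cases), the peak's last base was used.

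TSSs of protein-coding genes came from Ensembl release 115, in dm6 coordinates. A summit counted for every gene with a TSS within 1000 bp, and positions refer to the nearest TSS of that gene. Ranks follow the signal value within a list. Groups of genes were described by counts beside all 13945 genes, without tests, since genes are not replicates and the 2 libraries form 1 group. The assignment was tested on simulated data.

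The members and gene lists were chosen with earlier results of these data known. Named genes are the members with an IDR promoter summit, up to 6 just outside the set, copies with their partners, members without a pooled summit, pathway genes with an IDR summit and neighbours that share one. Alternatives covered the window, TSS set, assignment, stronger peaks and each replicate alone. Python 3.11.15, numpy 2.4.6, pandas 2.3.3 and matplotlib 3.10.9 were used.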

Additional observations from a re-analysis of the deposited data

How the results depend on the processing

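All alternatives were planned. The count of genes with an IDR promoter summit, 17 of 88, was 14 with a window of 500 bp (18.5% of all genes), 25 with 2000 bp (27.7%), 17 with 1 TSS per gene (19.7%), and 15 to 19 with a replicate left out. It moved most with nearest TSS assignment, to 7 for the family, a share below the 15.9% of all genes. The counts were then 6 of 64 without the L suffix and 1 of 24 L copies. By complex they were 4 in complex I, 0 in complex II, 1 in complex IV and 1 in complex V. Among IDR peaks above their median signal, the counts were 9 for the family (12.9% of all genes), 8 without the suffix, 0 in complex II, 1 in complex IV and 1 in complex V. With 500 bp, the L copies and complexes II and III had 0 each. With 2000 bp, there were 3 L copies, 2 genes in complex II, 7 in complex IV and 5 in complex V. Complex II ranged from 0 to 1 with a replicate left out, being 0 without replicate 3, where SdhA, whose replicate 2 summit lay 1067 bp from the TSS, was lost together with ND-75 and ATPsynbeta while ATPsynC was added. Without replicate 2, ATPsynG and ND-B17 were added and none was lost.

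The median position was -47.0 bp with nearest TSS assignment and -125 to -108 bp with a replicate left out. The upstream share was 85.7% with 500 bp, 71.4% when only the closest TSS counted, and between 76.5% and 78.3% when 1 replicate was omitted. The median percentile by signal was 31.1 without replicate 2 (23 member summits) and 66.8 without replicate 3 (17 member summits). Matches in both replicates numbered 12 within 50 bp and 18 within 250 bp, against 17. Pooled promoter summits were at 41 to 63 genes with a replicate left out. The cause of these changes was not tested beyond what the assignment rule fixes. No paired analysis was possible because both samples belong to 1 group. With depth unknown, a gene without a peak is one without a detected peak.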
